A study of Homo sapiens with 14 samples.

Results

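A 45 Mb stretch of the short arm of chromosome 2 held STAT5 and BCL6 ChIP-seq intervals more densely, per Mb and per gene start, than the rest of that chromosome in all 6 lists analysed. It was defined as every distinct interval on chromosome 2 whose start lay between 30000001 and 75000000 (GRCh37, the build named in the submitters' processing notes). It held 628 of 14047 activator STAT5 intervals, 153 of 1652 inhibitor BCL6 intervals, 1795 of 68320 control STAT5 intervals and 1992 of 68393 control BCL6 intervals. It also held 268 of the 3593 activator STAT5 intervals that lie on a control BCL6 interval, and 50 of the 391 inhibitor BCL6 intervals that lie on a control STAT5 interval. These members were chosen by position, in a stretch selected on the measured density of its intervals. Its density, its values and the overlap between lists inside it, all taken from the same reads, are therefore given as a description with no test of inside against outside.

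The cells were DLD-1, an established human line from a colorectal adenocarcinoma. In the activator group they carried the plasmid pEGFP-C1199Tiam1, which codes for a fragment of TIAM1, an exchange factor that activates RAC1, and received vehicle for 16 h. In the inhibitor group they carried the same plasmid and received 20 microM EHT 1864, a RAC inhibitor, for 16 h, and in the control group they carried an empty vector. All groups were transiently transfected, so a dish can hold cells without plasmid, and chromatin was taken 20 h after transfection for precipitation with STAT5 (C-17) or BCL6 (N-3) antibodies. Columns of 9 of the 14 libraries were analysed (activator STAT5 2, inhibitor BCL6 3, control STAT5 2, control BCL6 2), and the other 5 libraries were not analysed here. Whether libraries of a group are separate cultures is not labelled, so the spread between libraries may be technical only. Both control lists were deposited under names that carry a treated condition, activator for control BCL6 and inhibitor for control STAT5, and are called control here because their columns name control libraries. The description of the third inhibitor BCL6 library names the list shared with control STAT5 and not the inhibitor BCL6 list that also has its column. Published karyotypes of this line include a duplication within the short arm of chromosome 2. DNA copy number and an input library are not among the values used here, and the part of copy number in the density was not tested.

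STAT5 is a transcription factor that is phosphorylated by JAK kinases below cytokine and growth factor receptors, forms dimers and binds DNA at palindromes of the form TTCNNNGAA, mostly as an activator. BCL6 is a zinc finger protein best known from germinal centre B cells. It recruits corepressors and recognises DNA that contains a similar TTCC core, so both proteins can use overlapping sites, and the series title names a switch between them downstream of RAC1 and PAK1. Each list holds intervals that start between 3000 bp before and 1000 bp after the start of an Ensembl gene, with a whole-number value per library, either 0 or at least 2, read here as a count of reads. A control interval is at least 250 bp wide and needs a value in 1 of its 2 libraries. A treated interval must reach 2 in all libraries of its list and has no base in common with a control interval of the same antibody.

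The promoters printed here are those that treated intervals covered furthest among the stretch genes with a promoter in the RefSeq table (212 of the 372 symbols). For each treated list these are its leading pair, shown as examples of the DNA before gene starts where these intervals lie, since no genome of the deposited build was used. Each is the 250 bases before the RefSeq gene start on the gene's own strand (GRCh38.p14), 5′ to 3′, and capitals mark TTCC or its complement GGAA. Interval positions are given relative to the deposited gene start, which can differ from the RefSeq start.
PPM1B: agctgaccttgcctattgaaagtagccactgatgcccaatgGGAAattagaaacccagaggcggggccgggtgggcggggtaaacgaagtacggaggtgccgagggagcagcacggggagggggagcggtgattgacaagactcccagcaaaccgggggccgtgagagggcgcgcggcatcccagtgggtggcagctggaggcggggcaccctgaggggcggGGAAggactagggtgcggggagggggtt
TTC7A: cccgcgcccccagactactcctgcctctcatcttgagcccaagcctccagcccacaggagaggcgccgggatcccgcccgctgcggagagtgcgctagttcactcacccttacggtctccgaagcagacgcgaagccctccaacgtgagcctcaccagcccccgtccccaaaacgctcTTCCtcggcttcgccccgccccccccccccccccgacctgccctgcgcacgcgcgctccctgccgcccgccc
BMP10: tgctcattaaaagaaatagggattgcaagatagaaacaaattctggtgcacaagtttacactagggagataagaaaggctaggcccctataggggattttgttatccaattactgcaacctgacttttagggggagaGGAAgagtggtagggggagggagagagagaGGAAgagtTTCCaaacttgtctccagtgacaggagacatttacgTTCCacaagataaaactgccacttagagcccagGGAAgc
TMEM17: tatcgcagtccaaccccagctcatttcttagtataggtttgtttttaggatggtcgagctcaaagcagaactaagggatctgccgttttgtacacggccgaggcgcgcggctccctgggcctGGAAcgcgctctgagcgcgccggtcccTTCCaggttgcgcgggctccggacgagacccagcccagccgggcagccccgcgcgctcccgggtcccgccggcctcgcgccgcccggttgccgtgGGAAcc

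An activator STAT5 interval ran from -205 to 5 bp at PPM1B, which codes for a protein phosphatase, with values of 4 and 8 in the 2 libraries. Another ran from -188 to 71 bp at TTC7A, which codes for a scaffold protein of a lipid kinase complex, with values of 2 and 11. An inhibitor BCL6 interval ran from -127 to 120 bp at BMP10, a growth factor of the TGF-beta family, with values of 3, 2 and 3 in the 3 libraries. At TMEM17, a gene for a membrane protein of the primary cilium, one ran from -310 to -177 bp with values of 2, 2 and 3. The full palindrome TTCNNNGAA, which reads the same on both strands, occurred in 0 of the 15 promoter windows met by activator STAT5 intervals and in 0 of the 6 met by inhibitor BCL6 intervals. All 250 bases were searched, of which the activator STAT5 intervals covered 2 to 205 (median 63) and the inhibitor BCL6 intervals 28 to 127 (median 70), so much of the searched sequence lies outside the intervals. In the same 250 bases it occurred in 15 of 320 promoters of the 212 stretch symbols, some of which have several starts (4.69%), 75 of 1217 of the rest of chromosome 2 (6.16%) and 2304 of all 35093 in the table (6.57%). TTCC or GGAA, on either strand, occurred in 95% of stretch promoters, 91.3% of those of the rest of chromosome 2 and 92.7% of all, with a median of 3 matches in each set. Median GC content was 60.8% in stretch promoters, against 63.2% in those of the rest of chromosome 2 and 58.0% in all. A match, or none, describes these letters only.

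The stretch holds 745 of the 3724 distinct gene starts on chromosome 2 that have an interval in any separate list (20.0%), on 18.5% of its length. The density of gene starts there was thus close to that of the rest of the chromosome. The activator STAT5 list had 14.0 intervals per Mb in the stretch and 4.65 per Mb in the rest of chromosome 2, a ratio of 3.0 (95% interval 2.71 to 3.32 from the exact Clopper-Pearson interval of the share, counting error only). The inhibitor BCL6 list had 3.4 per Mb in the stretch and 0.586 per Mb in the rest, a ratio of 5.8 (4.53 to 7.45). The control lists stood apart by less. Control STAT5 had 39.9 per Mb in the stretch and 23.7 per Mb in the rest, a ratio of 1.69 (1.6 to 1.78). Control BCL6 had 44.3 per Mb in the stretch and 23.6 per Mb in the rest, a ratio of 1.88 (1.78 to 1.98). The activator STAT5 intervals on control BCL6 intervals had a ratio of 5.24 (4.37 to 6.29), and the inhibitor BCL6 intervals on control STAT5 intervals a ratio of 7.59 (4.71 to 12.4). Per gene start the order was the same, with ratios of 2.73 for activator STAT5, 5.27 for inhibitor BCL6, 1.53 for control STAT5 and 1.71 for control BCL6. Of all intervals of each list in the genome, the stretch held 4.47% of activator STAT5, 9.26% of inhibitor BCL6, 2.63% of control STAT5 and 2.91% of control BCL6.

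The lists ask for different numbers of libraries per interval, and in both control lists the ratio was larger for intervals held by both libraries. Per gene start, intervals held by control STAT5 library 1 had a ratio of 1.78 and those held by library 2 a ratio of 1.57. Those held by both had 3.06, against a product of the single ratios of 2.79. In control BCL6 the single libraries had 1.96 and 1.77 and the intervals held by both had 3.62, against a product of 3.49. Such a product assumes that libraries hold intervals independently of each other, which was not tested. The activator STAT5 list, which needs 2 libraries, had 2.73, and the inhibitor BCL6 list, which needs 3, had 5.27. The entry rule of a list and the treatment cannot be told apart in these ratios. Counted in both control libraries, 331 of 1795 control STAT5 intervals of the stretch had a value (18.4%, 16.7 to 20.3), against 433 of 4685 in the rest of chromosome 2 (9.24%, 8.43 to 10.1) and 9.34% over all chromosomes. For control BCL6 it was 377 of 1992 in the stretch (18.9%, 17.2 to 20.7), against 416 of 4669 in the rest (8.91%, 8.11 to 9.76) and 9.19% over all chromosomes.

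**Figure D1:**
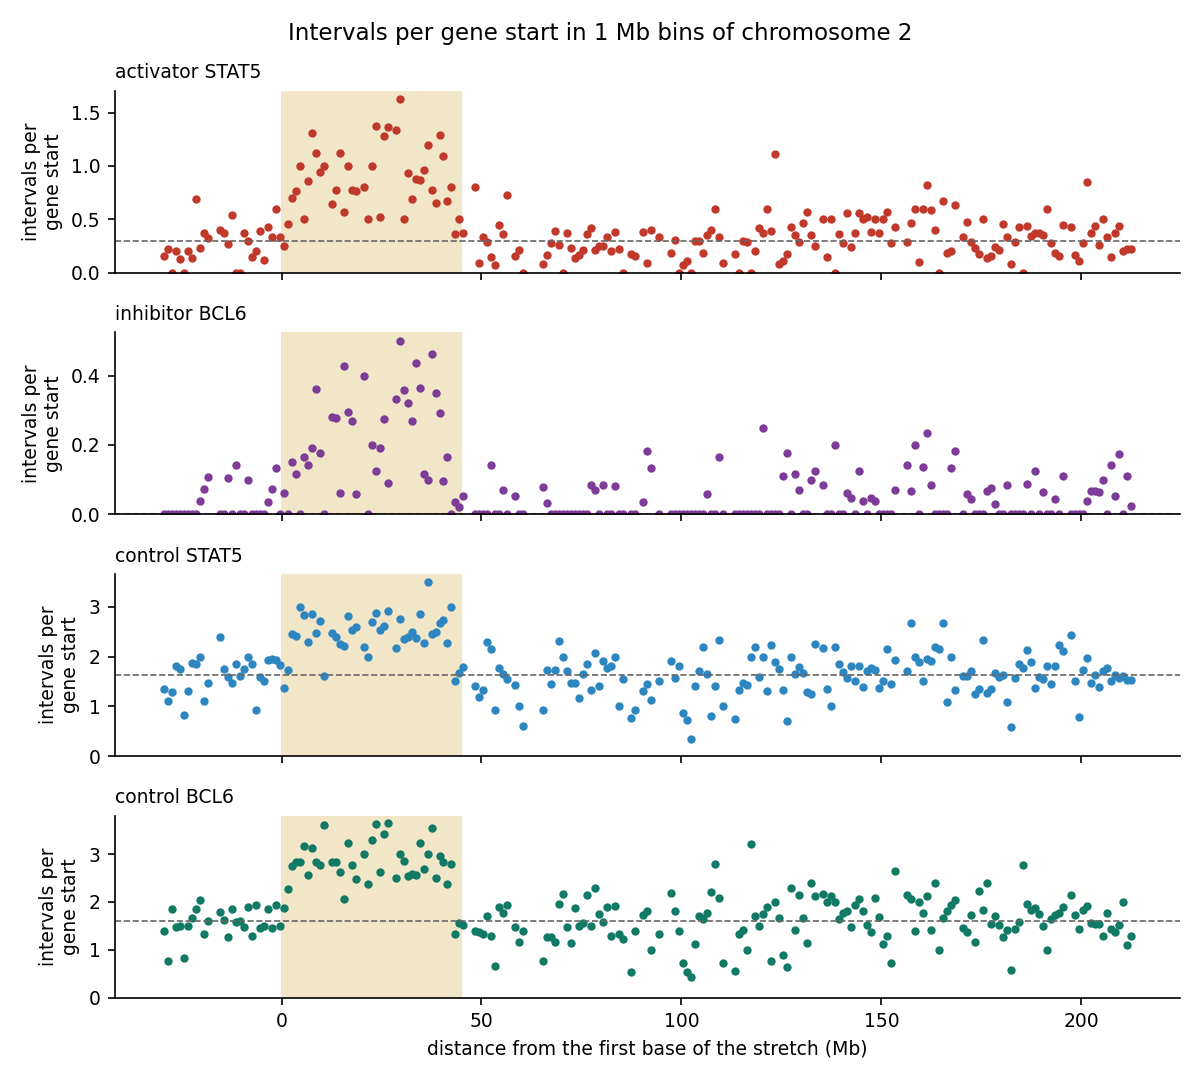
Intervals per gene start in 1 Mb bins of chromosome 2 with at least 5 gene starts, for each separate list, against distance from the first base of the stretch in Mb. The shaded band is the stretch, the dashed line the median of the bins outside it, and each point is 1 bin; the activator STAT5 bins inside have a median of 0.829, against 0.294 outside.

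In steps of 1 Mb the density formed a plateau with a step at either end. Among bins with at least 5 gene starts, the activator STAT5 list had a median of 0.829 intervals per gene start in the 42 bins of the stretch (0.25 to 1.62) and 0.294 in the 177 bins of the rest of chromosome 2 (0.0 to 1.11). The inhibitor BCL6 list had a median of 0.183 in the stretch (0.0 to 0.5) and 0.0 in the rest (0.0 to 0.25). Both control lists summed had a median of 5.22 in the stretch (2.82 to 6.55) and 3.24 in the rest (0.784 to 5.2). From 32 to 73 Mb the lowest bin had 0.5 activator STAT5 and 0.0 inhibitor BCL6 intervals per gene start. In control STAT5 the lowest was 1.6, and in control BCL6 2.07. For both control lists summed, the sparsest of the 38 bins there had 4.29 intervals per gene start. All 38 bins reach that level by construction, since it was set by the sparsest of them. It was reached by 147 of 2194 bins outside the stretch (6.7%), given as a description and no test. Outside the stretch the longest run of neighbouring bins at or above that level, among bins with at least 5 gene starts, was 3 bins. By count the densest bin of the stretch was 55 to 56 Mb, with 37 activator STAT5, 8 inhibitor BCL6, 76 control STAT5 and 99 control BCL6 intervals at 29 gene starts, among them those of RPS27A, CLHC1, CCDC88A and CFAP36. Within the stretch it was followed by the bin from 70 to 71 Mb (34, 3, 85 and 88 intervals at 31 gene starts, MXD1, ASPRV1, TIA1 and TGFA among them) and the bin from 37 to 38 Mb (34, 5, 74 and 81 at 26 gene starts, HEATR5B, EIF2AK2, PRKD3 and CDC42EP3 among them). The bins with the fewest intervals were those with few genes: the bin from 57 to 58 Mb had 2 activator STAT5, 0 inhibitor BCL6, 5 control STAT5 and 7 control BCL6 intervals at 2 gene starts.

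**Figure D2:**
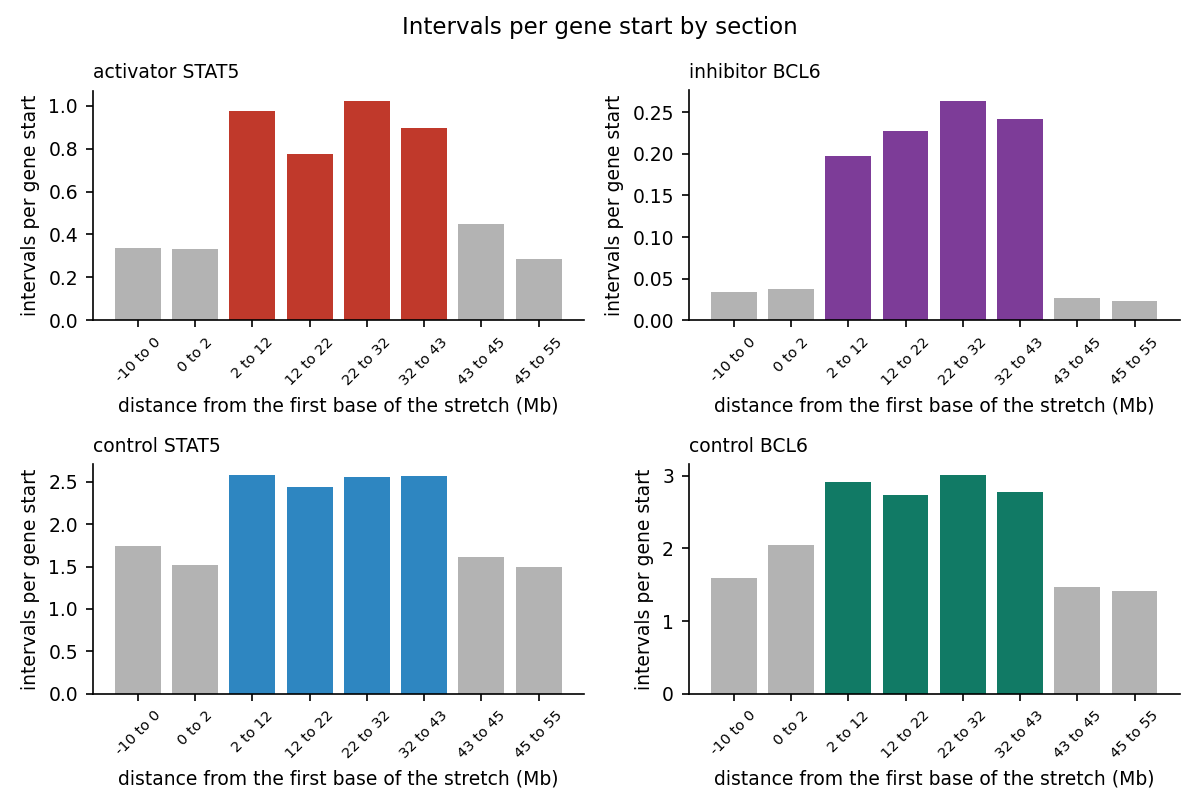
Intervals per gene start in sections inside the stretch and on either side of it, for each separate list, against distance from the first base of the stretch in Mb. Coloured bars are the sections of the plateau and grey bars the edges and flanks; in the inhibitor BCL6 panel the plateau bars lie between 0.197 and 0.263 and the grey ones between 0.023 and 0.037.

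Within the plateau the sections lay closer to each other than to the flanks in all 4 separate lists. Activator STAT5 had 0.977 intervals per gene start from 32 to 42 Mb, 0.773 from 42 to 52 Mb, 1.02 from 52 to 62 Mb and 0.897 from 62 to 73 Mb. Inhibitor BCL6 had 0.197, 0.227, 0.263 and 0.242 in the same sections, control STAT5 2.58, 2.44, 2.56 and 2.57, and control BCL6 2.91, 2.73, 3.01 and 2.78. In the treated lists the outermost Mb of the stretch were nearly as sparse as its flanks. From 30 to 32 Mb activator STAT5 had 0.333 intervals per gene start and inhibitor BCL6 0.037, against 0.335 and 0.0343 in the flank from 20 to 30 Mb. From 73 to 75 Mb activator STAT5 had 0.447 and inhibitor BCL6 0.0263, against 0.287 and 0.023 in the flank from 75 to 85 Mb.

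The split that best separated the control density lay at 31.6 Mb on the telomere side, with 5.38 control intervals per gene start inside it and 3.31 outside it between 20 and 50 Mb. The last symbol before it was EHD3, a gene of endocytic recycling (start 31457204), which had 1 control STAT5 interval (2 and 0), 1 control BCL6 interval (2 and 0) and no treated interval. The first symbol after it was XDH, xanthine dehydrogenase of purine breakdown (start 31637581), with 2 control STAT5 and 4 control BCL6 intervals and no treated interval. On the centromere side the split lay at 73 Mb, with 5.3 control intervals per gene start inside it and 3.02 outside it between 60 and 90 Mb. It fell between RNU2-39P (start 72948936) and EXOC6B, which codes for a subunit of the exocyst (start 73053177) and had 1 activator STAT5, 0 inhibitor BCL6, 2 control STAT5 and 0 control BCL6 intervals. Both splits were found with the values that they separate, to 0.1 Mb. Just inside the rule's own bounds, the first activator STAT5 interval started at 30120570 (2 and 2) and the last at 74785324, at LOXL3 (2 and 3). Just outside them, the nearest started at 29152807 (2 and 4) and at 75144833, at LINC01291 (3 and 2). For inhibitor BCL6 the first inside started at 30288622 (2, 2 and 2) and the last at 74683342, at WBP1 (2, 3 and 4), and the nearest outside at 28529496, at RPL23AP34 (3, 2 and 2), and at 75699139 (2, 5 and 3).

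**Figure D3:**
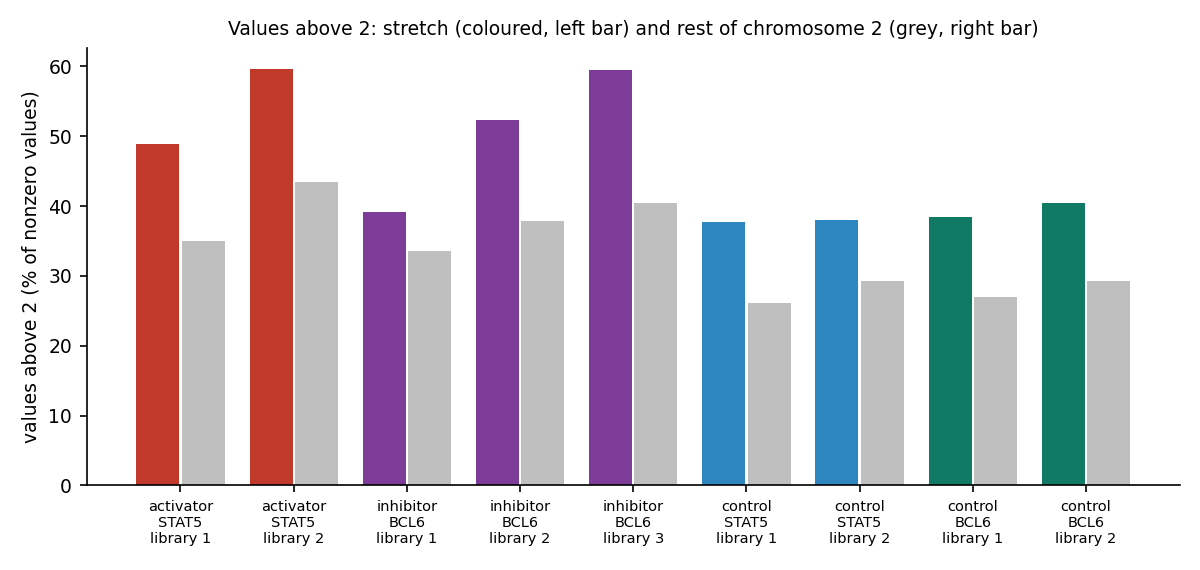
Percent of nonzero values above 2, the lowest possible value, in each of the 9 libraries. The left, coloured bar is the stretch and the right, grey bar the rest of chromosome 2; the coloured bar is the taller in all 9 libraries, with 59.7% against 43.5% in activator STAT5 library 2.

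Values were also higher in the stretch in each library. Activator STAT5 libraries 1 and 2 averaged 3.1 and 3.93 in the stretch, against 2.64 and 2.94 in the rest of chromosome 2. Inhibitor BCL6 libraries 1, 2 and 3 averaged 2.84, 3.17 and 3.88 in the stretch, against 2.58, 2.71 and 3.08 in the rest. Control STAT5 libraries averaged 2.68 and 2.73 in the stretch and 2.4 and 2.46 in the rest, counting nonzero values. Control BCL6 libraries averaged 2.72 and 2.8 in the stretch and 2.42 and 2.48 in the rest. Values above 2 made up 48.9% and 59.7% of activator STAT5 values in the stretch, against 35.0% and 43.5% in the rest. In inhibitor BCL6 they made up 39.2%, 52.3% and 59.5% in the stretch, against 33.6%, 37.9% and 40.5% in the rest. In the controls the share ran from 37.7% to 40.5% in the stretch and from 26.1% to 29.3% in the rest. The stretch held 44.5% and 47.7% of the summed chromosome 2 values of the activator STAT5 libraries, and 59.3%, 60.7% and 62.4% of those of the inhibitor BCL6 libraries. It held 33.2% and 30.4% of the control STAT5 sums and 35.6% and 33.3% of the control BCL6 sums.

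The ratio of the mean value in the stretch to that in the rest is given per library without a p, since values decide which intervals enter a list and the stretch was chosen on their density. It was 1.21 ± 0.0914 in the 5 treated libraries (SD, 1.1 to 1.34) and 1.12 ± 0.00747 in the 4 control libraries (SD, 1.11 to 1.13), a difference of 0.0896. Inhibitor BCL6 library 1 lay below the controls at 1.1, and the other 4 treated libraries lay above them. The ratio was 1.19 ± 0.106 in the 4 STAT5 libraries and 1.16 ± 0.0624 in the 5 BCL6 libraries (SD). Their ranges overlapped, and the difference of 0.0293 was -0.0219 without activator STAT5 library 2. Treated intervals need at least 2 in all libraries of their list and control intervals a value in 1 of 2, so the entry rule and the treatment cannot be told apart here as well.

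**Figure D4:**
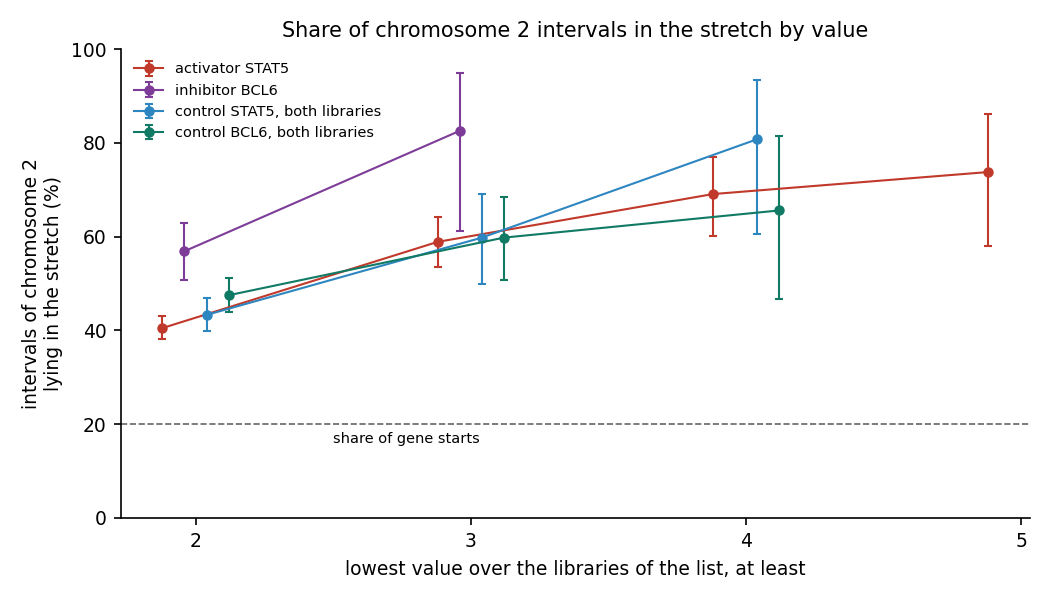
Percent of each list's chromosome 2 intervals that lie in the stretch, against the lowest value an interval had over the libraries of its list, at or above 2, 3, 4 and 5. Points with fewer than 20 chromosome 2 intervals are left out, bars are exact 95% Clopper-Pearson intervals, control lists are those held by both libraries, and the dashed line is the share of gene starts (20.0%); the activator STAT5 line climbs to 73.8%.

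In each separate list the share of chromosome 2 intervals that lay in the stretch was larger among those with at least 3 in every library than among all of them. For activator STAT5 it was 40.5% of all its chromosome 2 intervals, 58.9% of those with at least 3 in both libraries (201 in the stretch, 140 in the rest), 69.1% at 4 (85 and 38) and 73.8% at 5 (31 and 11). At 5 these 31 intervals were also 15.9% of the 195 in the genome. For inhibitor BCL6 it was 56.9% of all and 82.6% of those with at least 3 in each of 3 libraries (19 in the stretch, 4 in the rest, 61.2 to 95), which were 19.0% of the 100 in the genome. At 4 the inhibitor BCL6 counts were 3 in the stretch and 2 in the rest, too few to place a share, and at 5 they were 0 and 1. Control intervals held by both libraries gave 43.3%, 59.8% and 80.8% at 2, 3 and 4 for STAT5, and 47.5%, 59.8% and 65.6% for BCL6. At 5 the shares were lower, on few intervals, with 4 control STAT5 intervals in the stretch and 2 in the rest, and 2 control BCL6 intervals in the stretch and 5 in the rest. Of the 11 inhibitor BCL6 intervals of chromosome 2 that had at least 3 in each library and lay on a control STAT5 interval, 10 were in the stretch, and 27 such intervals were counted in the genome. In 18 of the 31 highest activator STAT5 intervals and 9 of the 19 highest inhibitor BCL6 intervals no gene nearby carried a symbol, while 372 of the 758 gene IDs of the stretch have one.

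Values of 10 or more came mostly from a single library of each treated list. In the stretch activator STAT5 library 2 had 29 such values and library 1 had 0, and inhibitor BCL6 library 3 had 6, library 1 had 2 and library 2 had 1. Activator STAT5 library 2 was the higher in 278 of 628 stretch intervals, library 1 in 166, and 184 were equal. In the rest of chromosome 2 library 2 was the higher in 309 of 921, library 1 in 221, and 391 were equal. Library depth is unknown, and its part in these differences was not tested. Across intervals, which share libraries and are not replicates, Spearman's rank correlation between the 2 libraries was 0.122 in the stretch and 0.00403 in the rest of chromosome 2. Neighbouring treated intervals can repeat a value. In the stretch 139 of the 628 activator STAT5 intervals lay within 1000 bp of the one before, 32 of them with its same values, and 20 of the 153 inhibitor BCL6 intervals did so, 4 with the same values. Median width in the stretch was 125 bp in activator STAT5, against 135 bp in the rest of chromosome 2, and 74 bp in inhibitor BCL6, against 84.5 bp in the rest.

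**Figure D5:**
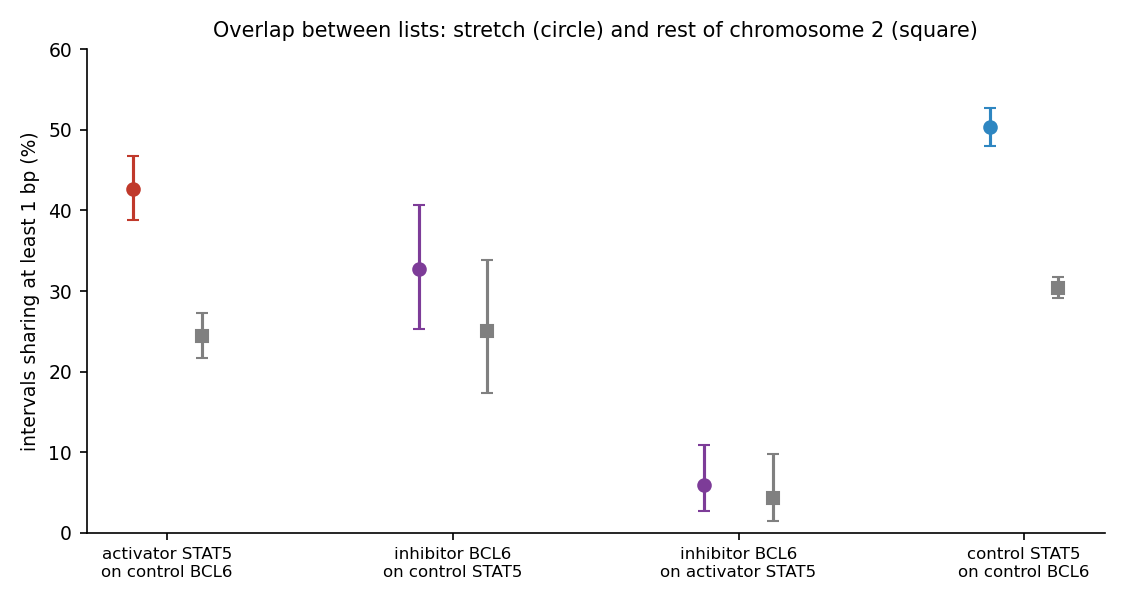
Percent of intervals of the first list that share at least 1 bp with an interval of the second, for 4 pairs of lists. Circles are the stretch, grey squares the rest of chromosome 2, and bars exact 95% Clopper-Pearson intervals; activator STAT5 on control BCL6 stands at 42.7% in the stretch and 24.4% in the rest.

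For each pair of lists below, the share of intervals that met the other list was higher in the stretch than in the rest of chromosome 2. This is a description and no test. The ranges in brackets carry counting error only, and intervals share libraries and are not replicates. Whether such ranges overlap therefore does not decide between stretch and rest. Of the activator STAT5 intervals of the stretch 268 of 628 shared at least 1 bp with a control BCL6 interval (42.7%, 38.8 to 46.7), against 225 of 921 in the rest of chromosome 2 (24.4%, 21.7 to 27.3) and 25.6% over all chromosomes. Control STAT5 met control BCL6 in 904 of 1795 cases in the stretch (50.4%, 48.0 to 52.7), against 1425 of 4685 in the rest (30.4%, 29.1 to 31.8) and 30.2% over all. With control BCL6 cut to library 1 or 2 alone, activator STAT5 met it in 26.1% or 27.9% of cases in the stretch, against 13.6% or 14.1% in the rest. Control STAT5 then met it in 33.1% or 32.5% in the stretch, against 16.6% or 17.9% in the rest. Inhibitor BCL6 met control STAT5 in 50 of 153 cases in the stretch (32.7%, 25.3 to 40.7). In the rest it did so in 29 of 116 (25.0%, 17.4 to 33.9), with 23.7% over all. The ranges in brackets overlap for this pair, which has fewer intervals. Seen from the other list, 13.2% of control BCL6 intervals of the stretch met an activator STAT5 interval, against 4.82% in the rest, and 2.56% of control STAT5 intervals met an inhibitor BCL6 interval, against 0.576% in the rest. Control intervals are denser in the stretch, and the part of that density in these shares was not tested. A treated interval directly touched a control interval of its own antibody in 192 of 628 activator STAT5 cases in the stretch (30.6%, 27.0 to 34.3), against 17.6% in the rest and 18.9% over all. For inhibitor BCL6 it did so in 40 of 153 cases in the stretch (26.1%, 19.4 to 33.9), against 13.8% in the rest and 14.3% over all.

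Inhibitor BCL6 and activator STAT5 intervals met in 9 of 153 inhibitor BCL6 intervals of the stretch (5.88%, 2.72 to 10.9). They met in 5 of 116 in the rest of chromosome 2 (4.31%, 1.41 to 9.77) and in 4.48% over all. The ranges in brackets overlap, which is no test here either. The list rules limit these meetings. No activator STAT5 interval shares a base with control STAT5, and no inhibitor BCL6 interval shares one with control BCL6. Of the inhibitor BCL6 intervals of the stretch 32.7% met a control STAT5 interval, on whose bases no activator STAT5 interval can lie. Of these 9 meetings 4 lay near a gene with a symbol, named here after their values were seen. At ANTXR1, an anthrax toxin receptor that binds matrix proteins, chr2:69238160-69238477 held activator STAT5 values of 4 and 6, and chr2:69238353-69238459 inside it held inhibitor BCL6 values of 2, 2 and 2. Each ended directly beside a control interval of its own antibody, with 2 and 0 in control STAT5 and 2 and 0 in control BCL6. At CCDC88A, the actin-binding protein girdin, the 2 intervals shared 71 bp, with activator STAT5 values of 3 and 4 and inhibitor BCL6 values of 2, 2 and 3. The activator STAT5 interval there ended directly beside a control STAT5 interval of 3 and 0. At LINC00486 the activator STAT5 and inhibitor BCL6 intervals shared 6 bp, with 3 and 4 and with 2, 3 and 4. At RN7SL604P they shared 45 bp, with 5 and 3 and with 3, 7 and 2.

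Protein-coding genes were counted by name, using the 244 that lie from ALK to SEMA4F in the order of the RefSeq table, which span the stretch. An activator STAT5 interval was listed for 140 of these (57.4%), against 27.2% of 1010 in the rest of chromosome 2 and 26.1% of all 20052. An inhibitor BCL6 interval was listed for 43 (17.6%), against 3.86% in the rest and 3.3% of all. Control STAT5 intervals were listed for 226 (92.6%), against 79.3% and 75.0%, and control BCL6 intervals for 224 (91.8%), against 78.5% and 74.0%. An activator STAT5 interval on a control BCL6 interval was listed for 79 (32.4%), against 7.33% in the rest and 7.44% of all, and an inhibitor BCL6 interval on a control STAT5 interval for 22 (9.02%), against 1.19% in the rest and 0.868% of all. Counted by gene ID, 90 of the 758 with a start in the stretch had an interval in all 4 separate lists (11.9%), against 34 of 3018 in the rest of chromosome 2 (1.13%). Of these 90, 41 had a symbol, among them FANCL, APLF, OTX1, MDH1, RHOQ and PIGF. Kinds of gene were alike in both: of the gene IDs in the stretch 30.9% were protein-coding by the RefSeq table and 12.1% pseudogenes, against 30.1% and 13.3% in the rest, and 51.2% could not be matched in either. The genes described next come from 6 lists of roles with 82 members described here, of which 51 had an activator STAT5 interval (62.2%) and 12 an inhibitor BCL6 interval (14.6%), close to the shares of all protein-coding genes of the stretch.

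Of 7 genes of DNA repair and damage, 5 had an activator STAT5 interval, 3 an inhibitor BCL6 interval and all 7 a control interval of each antibody. Control values beside a treated interval are those deposited with it, which can differ from the control list. MSH6, a subunit of a mismatch recognition complex, had no treated interval, with 2 control STAT5 and 2 control BCL6 intervals. At APLF, a factor of double-strand break repair, the activator STAT5 interval chr2:68694824-68695419 (5 and 5) was 596 bp wide, the widest of the whole activator list, and began 130 bp after the gene start. It lay on no control interval. The inhibitor BCL6 interval at APLF, chr2:68693746-68693846 (3, 4 and 3), lay before the start, on a control STAT5 interval with 2 and 0. FANCL, a Fanconi anaemia gene that codes for a ubiquitin ligase, had activator STAT5 intervals at 58470659 (2 and 2) and 58471495 (3 and 5) and inhibitor BCL6 intervals at 58468390 (3, 3 and 6) and 58469776 (2, 3 and 5). Both inhibitor intervals lay nearer to the gene start than either activator interval. ETAA1, an activator of the ATR kinase, had an activator STAT5 interval of 3 and 2, and C1D, a cofactor of the nuclear exosome, and INO80B, a subunit of a chromatin remodeller, had 2 and 2 each. FBXO11, the ubiquitin ligase subunit that targets BCL6 for degradation in B cells, had an inhibitor BCL6 interval, chr2:48134627-48134683 (3, 4 and 2), and no activator STAT5 interval.

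All 16 genes of the signalling list had an activator STAT5 interval and 10 had one on a control BCL6 interval, whereas 1 had an inhibitor BCL6 interval. Over all protein-coding genes of the stretch these shares were 57.4%, 32.4% and 17.6%, and the list was chosen with earlier results of these data known. The gene with an inhibitor BCL6 interval was RHOQ, a small GTPase, with inhibitor BCL6 intervals of 2, 2 and 2 (chr2:46768149-46768278) and 4, 2 and 4 (a single base at 46769136) and an activator STAT5 interval of 2 and 2. SOS1, the exchange factor that activates RAS, had activator STAT5 intervals chr2:39350975-39351177 (3 and 6) and chr2:39352602-39352769 (2 and 10). The second of these touched a control STAT5 interval and neither lay on a control BCL6 interval. SOCS5, a member of the family of cytokine signalling suppressors, had chr2:46927046-46927165 (2 and 9), wholly on a control BCL6 interval (0 and 4) and directly beside a control STAT5 interval (2 and 4), and chr2:46923194-46923301 (2 and 2). PPM1B had 3 activator STAT5 intervals (3 and 3, 2 and 8, 4 and 8), and CDC42EP3, an effector of CDC42, also had 3 (2 and 6, 2 and 2, 4 and 5). PRKD3, a protein kinase D, had 2 and 8 and 4 and 3, both on control BCL6 intervals. TGFA, a ligand of the EGF receptor, had 4 and 2 and 3 and 2, and SPRED2, an inhibitor of RAS signalling, had 2 and 2. Every value of 8 or more in this list came from library 2.

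Of 19 genes of transcription and chromatin, 8 had an activator STAT5 interval and 3 an inhibitor BCL6 interval, while 19 had a control STAT5 and 17 a control BCL6 interval. OTX1, a homeobox factor, had both treated kinds in a row before its start: activator STAT5 at chr2:63276102-63276343 (5 and 10), then inhibitor BCL6 at chr2:63276509-63276634 (2, 4 and 2) and chr2:63276661-63276724 (2, 4 and 6). The activator STAT5 interval ended directly beside a control STAT5 interval (0 and 2), which the nearer inhibitor BCL6 interval overlapped in part. SIX2, a homeobox factor of kidney progenitors, had an inhibitor BCL6 interval of 24 bp (4, 3 and 5) and no activator STAT5 interval. MXD1, an antagonist of MYC, had 4 activator STAT5 intervals (5 and 2, 3 and 2, 2 and 5, 2 and 5), of which the last pair repeat the same values. BCL11A, a zinc finger repressor, had 2 and 2 on a control BCL6 interval of 3 and 0, and MTA3, a corepressor subunit known to act with BCL6, had 3 and 2 on one of 2 and 0. REL, a subunit of NF-kappa B, had no treated interval. Its control STAT5 interval chr2:61107257-61108351 had 4 and 7, and its control BCL6 interval chr2:61107467-61107871 had 3 and 3. The control STAT5 interval was 1 of 21 in the stretch with at least 4 in both libraries.

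Of 10 genes of epithelium and adhesion, 7 had an activator STAT5 interval, 6 on a control BCL6 interval, and 2 had an inhibitor BCL6 interval (CCDC88A and ANTXR1, given above). EPCAM, the epithelial adhesion molecule, had chr2:47572403-47572892, starting 105 bp into the gene, where activator STAT5 libraries 1 and 2 had 4 and 18. It met a control BCL6 interval of 0 and 3 over 123 bp. EPCAM also had a second one of 2 and 2, and no inhibitor BCL6 interval. ANXA4, an annexin, had 3 activator STAT5 intervals (4 and 3, 2 and 2, 5 and 3). GKN2, which codes for a gastrokine of the stomach, had none, whereas its neighbour GKN1 had 2 and 2 and 3 and 2.

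Of 11 genes of hormone receptors and metabolism, 6 had an activator STAT5 and 1 an inhibitor BCL6 interval. That gene was MDH1, malate dehydrogenase, whose inhibitor BCL6 interval chr2:63813555-63813629 (2, 7 and 2, on a control STAT5 interval of 0 and 2) sat between activator STAT5 intervals of 7 and 4 and of 7 and 2. The activator STAT5 interval of 7 and 4 filled the gap between that control STAT5 interval and another of 0 and 3. The list rule allows no activator STAT5 interval on the bases of either. Of 19 housekeeping and transport genes, 9 had an activator STAT5 and 2 an inhibitor BCL6 interval. RPS27A, which codes for a ubiquitin fused to a ribosomal protein, had activator STAT5 intervals of 4 and 2 and of 4 and 3, and an inhibitor BCL6 interval 27 bp after its start with 2, 2 and 5, on a control STAT5 interval of 4 and 2. EML4, a microtubule-binding protein, had an inhibitor BCL6 interval of 330 bp, the widest of that list in the stretch, with 2, 7 and 6. THADA had activator STAT5 intervals of 3 and 11, 4 and 5, and 3 and 4. XPO1, the main exporter of proteins from the nucleus, had no treated interval, with 3 intervals in each control list.

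Of the 10 activator STAT5 intervals with the highest values in both libraries, 9 lay at gene IDs without a symbol. In activator STAT5 the first was chr2:71041430-71041446 (9 and 9), of 17 bp, near ENSG00000231386, and the next chr2:70680891-70680893 (9 and 7), of 3 bp, near ENSG00000215996. PIGF, an enzyme subunit of GPI anchor synthesis, was the only symbol among the leading 10, with chr2:46845268-46845270 (6 and 14), of 3 bp, on a control BCL6 interval of 0 and 4. Its inhibitor BCL6 interval chr2:46846451-46846467 (3, 5 and 6) lay on a control STAT5 interval of 0 and 4. HEATR5B had the highest single values, 5 and 20 at chr2:37312925-37313291 and 2 and 20 at chr2:37311936-37311953. Among activator STAT5 intervals on a control BCL6 interval, PEX13, a peroxisome import factor, had 2 and 14, and NAGK, a sugar kinase, had 3 and 12, both against 0 and 2 in control BCL6.

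In inhibitor BCL6 the leading interval was chr2:47124956-47125244 (6, 4 and 6) near ENSG00000228925, on a control STAT5 interval of 0 and 2. LINC00309 had 3, 6 and 12 at chr2:64432140-64432348, on a control STAT5 interval of 0 and 4. PUS10, a pseudouridine synthase, had 5, 4 and 3 on a control STAT5 interval of 3 and 3, held by both libraries. CDKL4, a kinase, had 3, 5 and 4, and FBXO48, whose start lies beside that of APLF, had 3, 3 and 4 on a control STAT5 interval of 0 and 3. ANKRD53 had 4 inhibitor BCL6 intervals, the most at any gene ID of the stretch. They lay close together, from 71204774 to 71205398, and the last pair repeat the same values (3, 5 and 2). The genes with an inhibitor BCL6 interval on a control STAT5 interval also included DYNC2LI1 (4, 4 and 2, against 2 and 5 in control STAT5), DHX57 and MORN2, which share a start region (3, 2 and 4, against 0 and 3), GMCL1 (2, 3 and 3, against 0 and 3), KCNK12 (2, 4 and 2, against 0 and 5), TTC27 (2, 2 and 3, against 3 and 0), VPS54 (2, 2 and 2, against 0 and 2) and EML6 (2, 2 and 3, against 0 and 3). In 41 of the 50 such intervals of the stretch the control STAT5 value was 0 in 1 library.

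Small RNA genes were also covered. The stretch held 7 miRNA genes in the lists, of which 6 had an activator STAT5 interval, 5 of these on a control BCL6 interval, and 0 an inhibitor BCL6 interval. Of all gene IDs of the stretch 58.0% had an activator STAT5 and 18.6% an inhibitor BCL6 interval. The 9 mature sequences of the 6 with an activator STAT5 interval are printed from RefSeq to show which seeds (bases 2 to 8, in capitals) these genes carry. No seed was shared between these sequences.
hsa-miR-216a-5p: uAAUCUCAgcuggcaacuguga
hsa-miR-216a-3p: uCACAGUGgucucugggauuau
hsa-miR-216b-5p: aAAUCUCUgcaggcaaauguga
hsa-miR-216b-3p: aCACACUUacccguagagauucua
hsa-miR-217-5p: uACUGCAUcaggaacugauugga
hsa-miR-217-3p: cAUCAGUUccuaaugcauugcc
hsa-miR-558: uGAGCUGCuguaccaaaau
hsa-miR-559: uAAAGUAAauaugcaccaaaa
hsa-miR-1285-3p: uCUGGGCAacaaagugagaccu

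MIR217, MIR216A and MIR216B form a cluster whose gene starts span 17719 bp. Activator STAT5 intervals had 2 and 2 at MIR217, 2 and 2 and then 5 and 2 at MIR216A, and 5 and 2 at MIR216B. MIR558, which lies within the gene BIRC6, had 4 and 5 over 425 bp, and MIR1285-2 had 4 and 5 over 29 bp. MIR559 had 4 and 7 and a second interval of 2 and 3. MIR8485 had 3 control STAT5 and 3 control BCL6 intervals and no treated one.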

How the data were processed

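STAT5 and BCL6 ChIP-seq was measured in DLD-1 cells, and columns of 9 libraries in 6 lists were analysed. The submitters' processing notes name Bowtie 0.12.7, CASAVA 1.8.2 and GRCh37. How intervals were called, and with which thresholds, is not stated there. The authors' deposited values are whole numbers per interval and library with no named quantity, read here as counts. Library depth is unknown, so the stretch is compared with the rest within a library, and intervals carry counting error only. Where raw values of different libraries stand side by side, depth may differ between them. Sums of values over listed intervals are not depth.

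Each column was tied to a sample through the condition and number that both names carry, not through the list's name, and each distinct interval was counted once. Members and gene lists were chosen with earlier results of these data known, and the 6 lists of roles, the leading treated and shared intervals, the densest bins and the edge bins set which genes are named. A gene of these lists is not reported here. Position was that of the interval's start. Gene starts are the distinct deposited starts with an interval in a separate list. Overlap meant at least 1 shared bp. Shares have exact Clopper-Pearson 95% intervals. Differences between libraries in the ratio of mean values were computed with exact two-sided permutation tests, whose p-values are not printed because values set which intervals enter a list (SciPy 1.17.1, pandas 2.3.3, Python 3.11.15). The counting and tests were checked on simulated data. Of 44178 gene IDs in the lists 26209 matched the RefSeq table (GRCh38.p14), which gave names, gene kinds and gene order only. Alternatives covered merging, the denominator, the outside set, value and width minimums, the edges, both control libraries and leaving out each library.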

Additional observations from a re-analysis of the deposited data

How the results depend on the processing

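Among the 108 alternatives computed, 73 stayed within the counting interval, within 1 SD between libraries or on the same side of the threshold. Leaving out 1 library could not move a list's mean value ratio by 1 SD, since each list has only 2 or 3 libraries. Those runs were bound to count among the 73 and say nothing about stability. The density ratio was above 1 in every list under each alternative run. With intervals merged within 1000 bp it was 2.66 in activator STAT5, 1.31 in control STAT5 and 1.33 in control BCL6. Per gene start it was 1.53 in control STAT5 and 1.71 in control BCL6. With at least 3 in every treated library it was 6.32 in activator STAT5 and 20.9 in inhibitor BCL6. On the same rule it was 10.1 in activator STAT5 on control BCL6 and 44.0 in inhibitor BCL6 on control STAT5. With values of at least 3, not required in both control libraries, it was 2.35 in control STAT5 and 2.73 in control BCL6. Control intervals with at least 3 in both libraries numbered 64 in the stretch and 43 in the rest for STAT5, and 76 and 51 for BCL6. The stretch thus held 59.8% of those on chromosome 2 in each control list, against 58.9% in activator STAT5. For control intervals in both libraries the density ratio was 3.36 (STAT5) and 3.99 (BCL6). In the control lists it was 1.57 and 1.78 with edges at 35 and 70 Mb. With 1 control library left out it was 1.73 to 1.95 and 1.95 to 2.16. Leaving out a library of a treated list gives no density, since membership cannot change. Against the mean, shares above 2 gave a ratio of 1.38 in activator STAT5, 1.34 in inhibitor BCL6, 1.37 in control STAT5 and 1.4 in control BCL6. Medians gave 1.33 in inhibitor BCL6 and 1.0 in both controls.

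With a minimum of 0.5 of the interval's width shared, the overlap in the stretch was 33.9% for activator STAT5 on control BCL6 and 26.6% for control STAT5 on control BCL6. Shares with that minimum are given for the stretch only. With 1 control library left out it was 26.1% to 27.9% and 32.5% to 33.1%, and 20.9% to 23.5% for inhibitor BCL6 on control STAT5, where fewer control intervals remain. With values of at least 3 that last share was 52.6%, on 10 of 19 intervals. It was 1 of 4 in the rest of chromosome 2 and 27 of 100 over all chromosomes. The difference between treated and control libraries ranged from 0.0571 to 0.116 when a library was left out, with 0.116 without inhibitor BCL6 library 1. That between STAT5 and BCL6 libraries ranged from -0.0219 to 0.0549, below 0 only without activator STAT5 library 2. Beyond these constructions the cause was not tested. The edges at 32 and 73 Mb and the overlap without touching intervals were added after seeing the data. No paired analysis was possible because the labels number libraries in one series and pair none across groups.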
